A study of Mus musculus with 9 samples.

Results

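The 43 genes described here are the components of DNA replication and mitosis whose RNA is made mainly in dividing cells, together with 3 regulators of entry into S phase. They were chosen by name, with earlier results of these data known. The shares of all genes given beside their counts are therefore descriptions and do not test the list. They comprise 13 DNA replication genes, 3 regulators of the step from G1 to S phase and 27 mitotic genes. Each gene was read from the array rows that carried its symbol and no other, and a gene with more than 1 such row was represented by its brightest, taken over the mean of the 9 arrays. All 43 were measured, out of 22180 genes with a single symbol. Rrm2 alone had a second row, a dim one that was not used.

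Total RNA from whole corneas was labelled with biotin and hybridised to single-colour arrays, and the deposited values are log2 intensities. Every sample was 1 pool of 10 corneas from 5 mice, and there were 3 pools in each of 3 groups, all collected at postnatal day 58 after intraperitoneal doxycycline between postnatal days 28 and 58. The rescued pools came from mice with the Dstn corn1 mutation in which Srf had also been ablated in the corneal epithelium. The mutant pools came from Dstn corn1 mice without that ablation, and the WT pools from mice without the mutation. The strain background of all mice was a mixture of FVB, Swiss Black, 129, C57BL6/J and A.BY. The sources used here do not give the driver of the Srf ablation, nor whether mutant and WT mice carried parts of that system. All differences below are on the log2 scale, so a difference of 1 is a doubling of intensity, and the number of arrays limits their precision.

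A dividing cell copies its DNA in S phase and separates the copies in mitosis. Replication genes are transcribed largely by E2F factors as the cell enters S phase, and most mitotic genes peak later, in G2 and M phase, under the MuvB complex with B-Myb and FoxM1, whose target promoters often hold a CHR element and CCAAT boxes. In the cornea the dividing cells of the epithelium lie in its basal layer and at the limbus, and cells that move up out of the basal layer leave the cycle. Dstn encodes destrin, which disassembles actin filaments. Srf encodes the serum response factor, which reads the actin state of the cell, and the mutant epithelium is known to be thickened.

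The labels were checked on the arrays before anything else. Dstn read 5.61, 5.62 and 5.63 in rescued pools and 5.55, 5.80 and 5.54 in mutant pools, against 12.58, 12.55 and 12.59 in WT pools. Srf read 9.14, 9.45 and 8.45 in rescued pools, 10.77, 10.72 and 10.55 in mutant pools and 9.23, 8.98 and 9.17 in WT pools, and the rescued and mutant ranges did not overlap. The corneal markers were present in all groups, for Krt12, the cornea-specific keratin, averaged 13.9 in rescued, 13.5 in mutant and 13.9 in WT pools. Array medians ran from 6.75 to 6.78, and every one of the 43 genes lay above the median of all rows on every array. Among these 43 genes a pair of pools stood apart from their groups. WT pool 1 was the highest of the WT pools for all 43, against 38.6% of all genes, and rescued pool 3 was the lowest of the rescued pools for 36 of the 43, against 32.0% of all genes. Rescued pool 3 also stood apart over the whole array. Its correlation with mutant pools over all rows was 0.9815 to 0.9836, against 0.9867 to 0.9883 for rescued pools 1 and 2. The title of WT pool 1 ends in a second number that the labels do not explain. For each comparison the count of genes called in its main direction is therefore also given without WT pool 1 and without rescued pool 3.

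Promoter sequences of the genes were compared first, because replication and mitotic genes are known to differ in the elements in front of their start sites. RefSeq windows on GRCm38.p6, from 250 bases before to 50 bases after the start, were available for 34 of the 43 genes. Both strands were searched for 4 motifs. The E2F motif was spelled TTCCCGC or as one of the variants of it, namely TTGGCGC and the variant TTCGCGC and the variant TTGCCGC. The CHR element was spelled TTTGAA, the CCAAT box as it is named, and the CArG box was searched for as well. The stretches of 150 bases below are shown for 3 mitotic and 3 replication genes, with every E2F, CHR or CCAAT match on either strand in capitals. E2F matches that overlap run together in Mcm6. Cdk1 lies at chr10:69352913-69353062 on the minus strand, Top2a at chr11:99024190-99024339 on the minus strand and Cdc20 at chr4:118437344-118437493 on the minus strand. Mcm6 lies at chr1:128359706-128359855 on the minus strand, Rrm1 at chr7:102441545-102441694 on the plus strand and Cdc6 at chr11:98908001-98908150 on the plus strand. Each sequence reads 5′ to 3′ on the strand of its gene.
Cdk1: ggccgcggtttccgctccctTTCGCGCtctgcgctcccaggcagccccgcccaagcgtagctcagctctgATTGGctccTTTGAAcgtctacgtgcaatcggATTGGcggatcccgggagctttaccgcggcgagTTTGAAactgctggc
Top2a: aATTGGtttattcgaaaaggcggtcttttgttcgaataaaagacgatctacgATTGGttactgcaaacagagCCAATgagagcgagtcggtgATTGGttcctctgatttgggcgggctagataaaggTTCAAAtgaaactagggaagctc
Cdc20: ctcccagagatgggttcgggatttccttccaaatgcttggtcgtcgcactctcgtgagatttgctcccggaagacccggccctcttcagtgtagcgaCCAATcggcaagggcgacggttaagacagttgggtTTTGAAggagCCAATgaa
Mcm6: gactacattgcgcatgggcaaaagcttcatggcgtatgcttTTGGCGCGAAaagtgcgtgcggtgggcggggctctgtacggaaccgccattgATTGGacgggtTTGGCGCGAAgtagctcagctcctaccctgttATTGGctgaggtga
Rrm1: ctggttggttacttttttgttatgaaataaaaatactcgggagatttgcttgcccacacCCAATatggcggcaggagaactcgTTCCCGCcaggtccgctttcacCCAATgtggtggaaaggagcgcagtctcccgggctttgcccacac
Cdc6: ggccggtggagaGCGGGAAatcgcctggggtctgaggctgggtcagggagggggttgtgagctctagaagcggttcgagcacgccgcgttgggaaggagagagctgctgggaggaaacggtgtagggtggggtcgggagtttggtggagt

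The 2 sets of promoters differed in their letters. An E2F motif was found for 7 of 12 replication genes and 3 of 20 mitotic genes, against 10.9% of all 27025 genes in the promoter table. The CHR element was found for 2 of 12 replication genes (Cdc45 and Mcm2) and 16 of 20 mitotic genes, against 20.2% of all genes. CCAAT was found for 9 of 12 replication genes and 17 of 20 mitotic genes, against 41.1% of all genes. CHR and CCAAT stood in the same window for 2 of 12 replication genes and 15 of 20 mitotic genes, against 7.97% of all genes. The CArG box, the letters that serum response factor binds, was found for Tyms among the 34 genes, against 1.81% of all genes. Ccne1 and E2f1, the pair of G1 to S regulators in the table, held none of the 4 motifs in this window. A match is a description of letters, not a measured binding site.

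**Figure D1:**
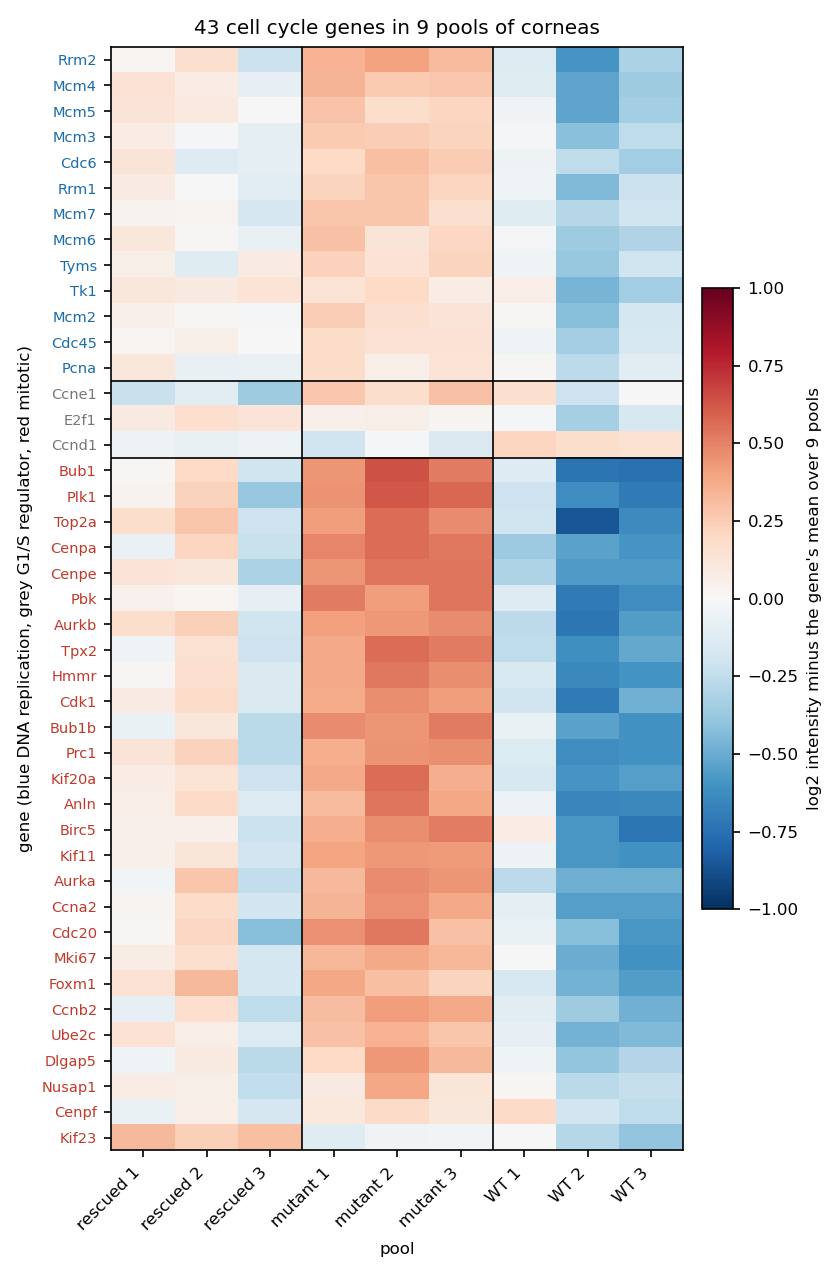
Log2 intensity of each of the 43 genes in each of the 9 pools, shown as the difference from that gene's mean over all pools. Columns are pools, ordered rescued, mutant and WT. Rows are genes grouped by class (DNA replication, G1 to S regulators, mitotic) and ordered within a class by mutant minus WT difference, largest first. The mutant columns are high throughout most rows, WT pools 2 and 3 are low, and WT pool 1 and rescued pool 3 differ from the other pools of their groups.

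Mutant corneas held more RNA of nearly the whole set than WT corneas did. In limma, 37 of the 43 genes were higher in mutant than in WT pools at an adjusted p under 0.05, where 15.1% of all genes were higher, and 1 was lower (Ccnd1), where 16.5% of all genes were lower. The median difference over the 43 was 0.70, or 1.63-fold, against −0.02 over all genes. Every mutant pool lay above every WT pool for 40 of the 43, against 21.0% of all genes. The 5 genes without a call were Pcna, Ccne1, E2f1, Cenpf and Kif23. In whole tissue, more cells in the cycle and more RNA per cell cannot be told apart.

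**Figure D2:**
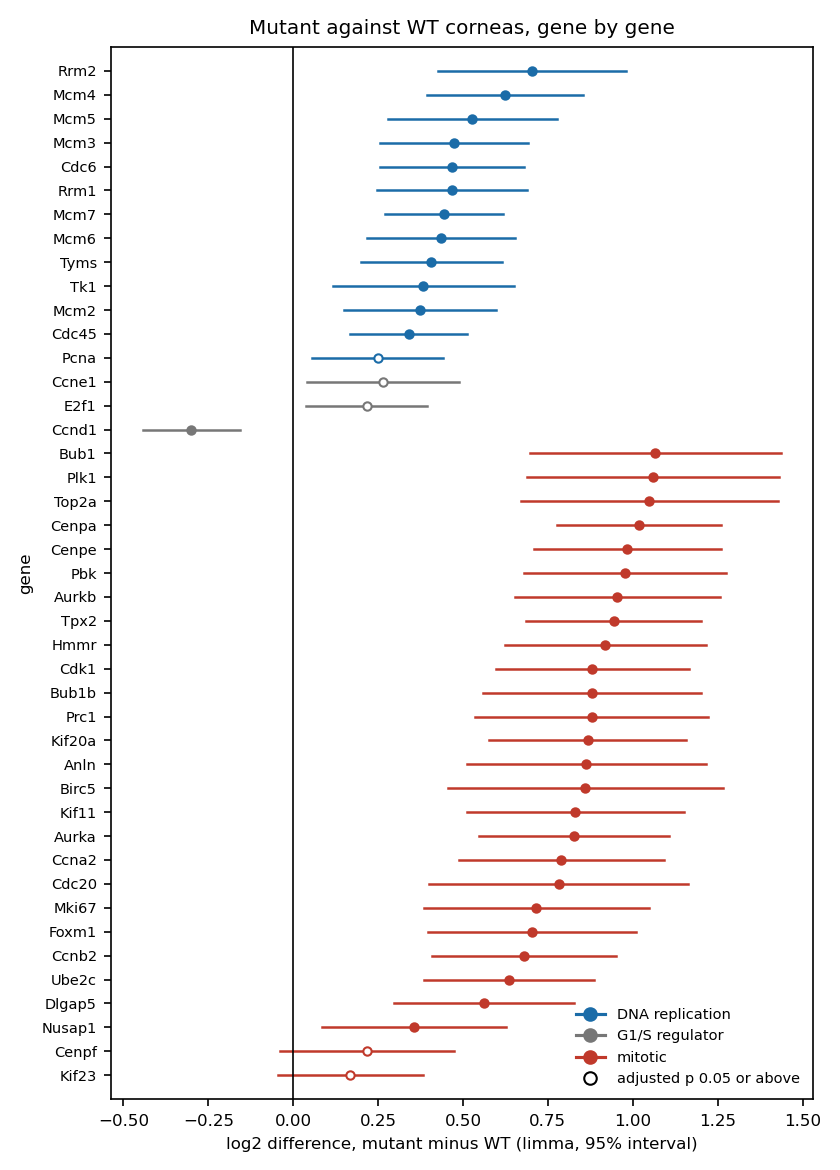
Mutant minus WT difference in log2 intensity for each of the 43 genes, with its 95% confidence interval from limma (3 pools per group). Points are coloured by class. Most mitotic genes lie to the right of the replication genes, and Ccnd1 is the single gene to the left of 0.

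Among the 9 genes of origin licensing and the replication fork, 8 were higher in mutant than in WT pools and the median difference was 0.44. The largest difference was that of Mcm4, a subunit of the MCM2-7 helicase that unwinds DNA at the fork. Mcm4 read 10.90, 10.83 and 10.67 in rescued pools, 11.10, 11.01 and 11.03 in mutant pools and 10.64, 10.23 and 10.40 in WT pools. All mutant pools lay above all rescued pools, and all rescued pools above all WT pools. Its mutant minus WT difference was 0.62 ± 0.10 (SE, adjusted p = 0.00117). The other MCM subunits differed by 0.37 (Mcm2, adjusted p = 0.0173), 0.47 (Mcm3), 0.53 (Mcm5), 0.44 (Mcm6) and 0.44 (Mcm7), and each was called.

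Cdc6, which loads the MCM helicase onto origins, read 8.48, 8.22 and 8.26 in rescued pools, 8.55, 8.65 and 8.60 in mutant pools and 8.30, 8.10 and 7.999 in WT pools. The mutant pools were above both other groups, and rescued and WT pools overlapped. Its mutant minus WT difference was 0.47 ± 0.09 (SE, adjusted p = 0.00396). Cdc45, which joins the helicase when the origin fires, differed by 0.34 ± 0.08 (SE, adjusted p = 0.00715). Pcna, the sliding clamp that holds DNA polymerase on its template, read 11.61, 11.43 and 11.43 in rescued pools, 11.69, 11.56 and 11.64 in mutant pools and 11.51, 11.24 and 11.39 in WT pools. Although its mutant pools all lay above its WT pools, its difference of 0.25 ± 0.09 (SE) missed the threshold (adjusted p = 0.0524).

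All 4 genes of nucleotide supply were higher in mutant pools. Rrm2, the regulated subunit of ribonucleotide reductase, read 10.07, 10.22 and 9.84 in rescued pools, 10.41, 10.46 and 10.37 in mutant pools and 9.92, 9.47 and 9.74 in WT pools. Mutant pools lay above both other groups, while rescued pool 3 lay below WT pool 1. The mutant minus WT difference of Rrm2, 0.70 ± 0.12 (SE, adjusted p = 0.00174), was the largest among the replication genes. Rrm1, the large subunit of the same enzyme, differed by 0.47 (adjusted p = 0.00497), and Tyms, which makes thymidylate, by 0.41 (adjusted p = 0.00751). Tk1, the thymidine kinase of the salvage route, read 9.54, 9.60 and 9.48 in mutant pools and 9.47, 8.94 and 9.06 in WT pools. Mutant pool 3 was above WT pool 1 by a narrow margin, and the difference was 0.38 ± 0.12 (SE, adjusted p = 0.0340).

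Of the 3 regulators of the step from G1 to S phase, 1 was lower in mutant than in WT pools and the other two were not called. Ccnd1 encodes cyclin D1, the partner of Cdk4 and Cdk6 early in G1. It read 12.10, 12.08 and 12.10 in rescued pools, 11.95, 12.13 and 12.01 in mutant pools and 12.36, 12.33 and 12.31 in WT pools. Every WT pool lay above every other pool. Ccnd1 was lower in mutant than in WT pools by −0.30 ± 0.06 (SE, adjusted p = 0.00503). Ccne1, whose product cyclin E1 drives Cdk2 at the start of S phase, read 8.93, 8.83 and 8.95 in mutant pools and 8.81, 8.45 and 8.65 in WT pools, a difference of 0.26 ± 0.10 (SE, adjusted p = 0.0729). E2f1, a transcription factor of replication genes, read 8.32, 8.33 and 8.29 in mutant pools and 8.25, 7.94 and 8.11 in WT pools, a difference of 0.22 ± 0.08 (SE, adjusted p = 0.0650). Neither Ccne1 nor E2f1 was called, although in both the mutant pools lay above the WT pools.

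Of the 27 mitotic genes, 25 were higher in mutant than in WT pools, and their median difference was 0.86, or 1.82-fold. The 8 genes of mitotic cyclins, kinases and transcription factors were all higher, with differences between 0.68 and 1.06. Plk1, the Polo-like kinase of mitotic entry and exit, read 9.80, 10.00 and 9.39 in rescued pools, 10.22, 10.39 and 10.34 in mutant pools and 9.56, 9.15 and 9.06 in WT pools. Mutant pools lay above both other groups, and rescued pool 3 lay below WT pool 1. Its mutant minus WT difference was 2.08-fold (adjusted p = 0.000847). Cdk1, the kinase that drives entry into mitosis, read 10.34, 10.44 and 10.11 in rescued pools, 10.63, 10.71 and 10.67 in mutant pools and 10.05, 9.54 and 9.77 in WT pools. The 3 groups did not overlap for Cdk1, which differed between mutant and WT pools by 0.88 ± 0.13 (SE, adjusted p = 0.000528).

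The cyclins that pair with Cdk1 were Ccna2, 0.79 higher in mutant than in WT pools, and Ccnb2, 0.68 higher. Aurka, the Aurora kinase of centrosomes and spindle poles, differed by 0.83 and Aurkb, the Aurora kinase of the chromosomal passenger complex, by 0.95. Pbk, a mitotic protein kinase, differed by 0.98 (adjusted p = 0.000355). Foxm1, the transcription factor that acts on G2 and M phase genes, read 8.40, 8.58 and 8.08 in rescued pools, 8.64, 8.56 and 8.48 in mutant pools and 8.10, 7.78 and 7.70 in WT pools. Its rescued pools overlapped both other groups, and its mutant minus WT difference was 0.70 ± 0.14 (SE, adjusted p = 0.00312).

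The 4 genes of the spindle checkpoint and of anaphase were all higher in mutant pools. Bub1, a checkpoint kinase at the kinetochore, had the largest mutant minus WT difference of the 43 genes. It read 9.005, 9.20 and 8.79 in rescued pools, 9.44, 9.63 and 9.51 in mutant pools and 8.87, 8.26 and 8.25 in WT pools. Mutant pools lay above both other groups, whereas rescued pool 3 lay below WT pool 1. The mutant minus WT difference of Bub1 was 1.07 ± 0.16 (SE, 2.09-fold, adjusted p = 0.000805). Bub1b, the checkpoint protein BubR1, differed by 0.88. Cdc20, the activator of the anaphase-promoting complex that the checkpoint holds back, differed by 0.78 (adjusted p = 0.00599), and Ube2c, the ubiquitin-conjugating enzyme of that complex, by 0.64.

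Among the 6 genes of centromeres and mitotic chromosomes, 5 were higher in mutant pools. Cenpa encodes the histone H3 variant that marks centromeres. It read 9.81, 10.09 and 9.65 in rescued pools, 10.36, 10.43 and 10.40 in mutant pools and 9.51, 9.34 and 9.29 in WT pools. Its 3 groups did not overlap, and its mutant minus WT difference of 1.02 ± 0.11 (SE) had the smallest adjusted p of the 43 genes (7.46e-05). Top2a, the topoisomerase that untangles sister chromatids, read 10.53, 10.63 and 10.15 in rescued pools, 10.77, 10.92 and 10.82 in mutant pools and 10.15, 9.50 and 9.72 in WT pools. Rescued pool 3 was level with WT pool 1, and the mutant minus WT difference was 1.05 ± 0.17 (SE, adjusted p = 0.00102).

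Mki67, the source of the proliferation marker Ki-67, which coats mitotic chromosomes, read 11.30, 11.39 and 11.04 in rescued pools, 11.55, 11.60 and 11.55 in mutant pools and 11.22, 10.73 and 10.61 in WT pools. Its mutant level was 1.64-fold its WT level (adjusted p = 0.00442). Cenpe, the motor that carries chromosomes to the spindle equator, differed by 0.98, and Birc5, the survivin subunit of the chromosomal passenger complex, by 0.86. Cenpf, a large kinetochore and nuclear matrix protein, read 8.69, 8.83 and 8.60 in rescued pools, 8.87, 8.96 and 8.88 in mutant pools and 8.96, 8.58 and 8.51 in WT pools. WT pool 1 reached the mutant range, and the difference of 0.22 ± 0.11 (SE) was not called (adjusted p = 0.192).

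All 5 spindle genes were higher in mutant pools. The differences were 0.83 for Kif11, the motor that pushes spindle poles apart, 0.94 for Tpx2, the activator of Aurora A on spindle microtubules, and 0.92 for Hmmr, a microtubule-binding protein of the spindle. Dlgap5, which stabilises kinetochore fibres, differed by 0.56. Nusap1, which bundles spindle microtubules, read 9.12, 9.10 and 8.80 in rescued pools, 9.13, 9.43 and 9.16 in mutant pools and 9.07, 8.77 and 8.81 in WT pools. Mutant pool 1 and WT pool 1 lay close together, and the difference of Nusap1 was 0.36 ± 0.12 (SE, adjusted p = 0.0484).

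Of the 4 genes of the spindle midzone and cytokinesis, 3 were higher in mutant pools. Kif20a, a midzone motor, differed by 0.87, Prc1, which crosslinks the antiparallel microtubules of the midzone, by 0.88, and Anln, the anillin scaffold of the contractile ring, by 0.86. Kif23 encodes the motor subunit of centralspindlin, which sets the place of the cleavage furrow. It read 10.68, 10.60 and 10.66 in rescued pools, 10.24, 10.32 and 10.33 in mutant pools and 10.35, 10.07 and 9.96 in WT pools. WT pool 1 lay above every mutant pool, and the mutant minus WT difference of 0.17 ± 0.09 (SE) was not called (adjusted p = 0.225).

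Mitotic genes differed more between mutant and WT corneas than replication genes did. The median difference of the replication genes, 0.44, less that of the mitotic genes, 0.86, was −0.42, and 21 of 27 mitotic genes exceeded Rrm2, the replication gene with the largest difference. In single pools, the median log2 intensity of replication genes less that of mitotic genes had a within-group standard deviation of 0.106. That figure describes single pools and is not the error of the −0.42. The class difference of −0.42 lay between −0.47 and −0.37 when any 1 pool was left out. With 1 pool left out the count of genes higher in mutant than in WT pools lay between 34 and 42. It was 42 without WT pool 1 and 37 without rescued pool 3, where 3105 and 3333 of all 22180 genes were higher. Over 20 settings the calls of Tk1 and Nusap1 each held in 12 and that of Mcm2 in 18. Probe sets of different genes are not equally responsive, so that the contrast of classes compares log2 differences and not amounts of RNA.

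Rescued pools read below mutant pools for most of these genes, although few passed the test. The genes called lower included the centromere genes Cenpa and Cenpe, the mitotic kinase Plk1 and the checkpoint gene Bub1b. In limma, 9 of the 43 were lower in rescued than in mutant pools, where 6.88% of all genes were lower, and 1 was higher (Kif23), where 6.46% of all genes were higher. The difference was below 0 for 40 of the 43, with a median of −0.37, against −0.0019 over all genes. Every rescued pool lay below every mutant pool for 37 of the 43, against 17.1% of all genes. The 9 genes were Mcm7, Ccne1, Ccnb2, Plk1, Pbk, Bub1b, Cenpa, Cenpe and Tpx2, of which 7 are mitotic.

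Cenpa was 1.46-fold lower in rescued than in mutant pools (−0.55 ± 0.11, SE, adjusted p = 0.00904). Bub1b read 8.72, 8.90 and 8.52 in rescued pools, 9.26, 9.23 and 9.30 in mutant pools and 8.72, 8.25 and 8.18 in WT pools. All its rescued pools lay below all mutant pools, and rescued pools 1 and 3 lay within the WT range or level with its top. The rescued minus mutant difference of Bub1b was −0.55 ± 0.14 (SE, adjusted p = 0.0322). Plk1 had the largest one, −0.59 ± 0.17 (SE, adjusted p = 0.0441).

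Cenpe read 9.09, 9.08 and 8.65 in rescued pools, 9.40, 9.49 and 9.49 in mutant pools and 8.65, 8.39 and 8.39 in WT pools. Rescued pools 1 and 2 lay between the other groups, and rescued pool 3 was level with WT pool 1. Its rescued minus mutant difference was −0.52 ± 0.12 (SE, adjusted p = 0.0209). Tpx2 differed by −0.51 (adjusted p = 0.0172), Pbk by −0.50 (adjusted p = 0.0357) and Ccnb2 by −0.42 (adjusted p = 0.0488). The 19 mitotic genes that were negative but not called had differences between −0.53 and −0.19.

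The replication genes differed less between rescued and mutant pools, with a median of −0.19 against −0.41 for the mitotic genes. Mcm7, an MCM helicase subunit, was the one replication gene called. It read 10.15, 10.14 and 9.94 in rescued pools, 10.39, 10.38 and 10.27 in mutant pools and 9.99, 9.82 and 9.91 in WT pools, and differed by −0.27 ± 0.08 (SE, adjusted p = 0.0446). Rescued pools lay below all mutant pools, and rescued pool 3 lay within the WT range. Tk1 overlapped between these groups, at 9.52, 9.50 and 9.54 in rescued pools beside 9.54, 9.60 and 9.48 in mutant pools, and its difference was −0.02 with a 95% interval from −0.29 to 0.25 (adjusted p = 0.946).

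The call counts of this comparison depended on single pools. Leaving out 1 pool at a time gave between 2 and 17 genes lower in rescued than in mutant pools. There were 5 without rescued pool 1, 3 without rescued pool 3, 4 without mutant pool 1, 2 without mutant pool 2 and 2 without mutant pool 3. There were 6 without WT pool 2 and 17 without WT pool 1, whose own spread enters the shared error. Over all 22180 genes the counts of lower genes were, in the same order, 1106, 837, 893, 1436, 907, 1356 and 1458. The share of the 43 was below that of all genes without mutant pool 2 and near it without mutant pool 3. The median difference was steadier, between −0.45 and −0.25. The class difference, replication less mitotic, was 0.22 and fell to 0.11 without rescued pool 3. Cenpa was the single gene called in all 20 settings tried.

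**Figure D3:**
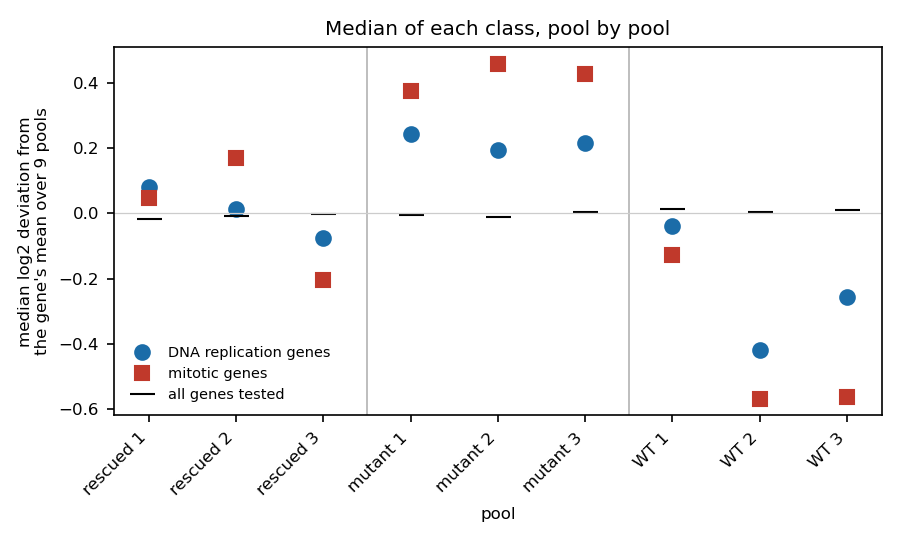
Median over the replication genes and over the mitotic genes of each pool's deviation from the gene's mean over 9 pools, in log2 units, for rescued, mutant and WT pools. The mutant pools sit between 0.20 and 0.46, and within the WT group pool 1 lies above pools 2 and 3 in both classes. The black dashes give the median over all genes tested.

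Rescued corneas lay above WT corneas for part of the set. In limma, 12 of the 43 were higher in rescued than in WT pools, where 6.28% of all genes were higher, and Ccnd1 was lower, where 7.43% of all genes were lower. The median difference was 0.37, against −0.01 over all genes, with 0.22 for the replication genes and 0.43 for the mitotic genes. Every rescued pool lay above every WT pool for 13 of the 43, against 13.4% of all genes. The 12 were Mcm4, E2f1, Cdk1, Aurkb, Pbk, Foxm1, Cenpa, Cenpe, Top2a, Tpx2, Hmmr and Kif23.

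Top2a had the largest rescued minus WT difference, 0.65 ± 0.17 (SE, adjusted p = 0.0320). Aurkb read 9.90, 9.96 and 9.52 in rescued pools, 10.13, 10.16 and 10.19 in mutant pools and 9.46, 8.997 and 9.17 in WT pools. The 3 groups of Aurkb did not overlap, with rescued pools in between, and its rescued minus WT difference was 0.58 ± 0.13 (SE, adjusted p = 0.0195). Cdk1 was 1.42-fold higher in rescued than in WT pools (adjusted p = 0.0281). The rescued minus WT differences of Foxm1, Pbk, Hmmr, Cenpa, Cenpe, Tpx2 and Mcm4 lay between 0.38 and 0.49.

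These counts, too, turned on single pools. Without WT pool 1, 27 genes were higher in rescued than in WT pools, and without rescued pool 3 there were 17. There were 2 without rescued pool 1, 2 without rescued pool 2, 1 without WT pool 2 and 1 without WT pool 3. Over all 22180 genes, 1103 were higher without WT pool 1 and 1429 without rescued pool 3. Without rescued pools 1 and 2 these were 966 and 819, and without WT pools 2 and 3 they were 929 and 995. There the share of the 43 was near or below that of all genes. Without mutant pools 1, 2 or 3, which enter through the shared estimate of error, 6, 7 and 5 of the 43 were higher. Over all genes 1302, 1385 and 1250 were. The median difference lay between 0.28 and 0.50 throughout. The class difference, −0.22, came to −0.10 without rescued pool 2. Kif23 was the single gene called higher in rescued than in WT pools in all 20 settings tried.

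**Figure D4:**
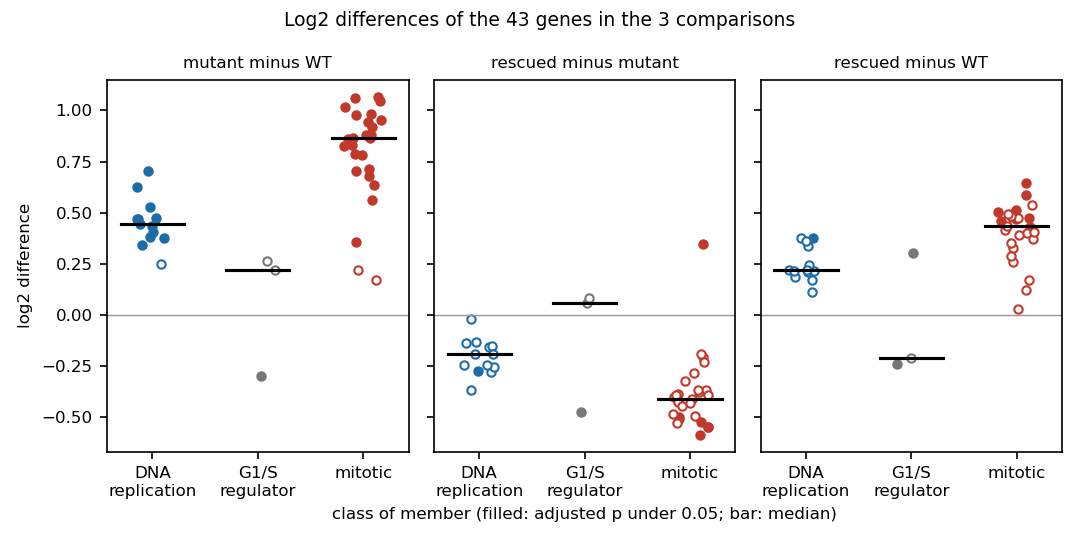
Log2 differences of the 43 genes in the 3 comparisons, 1 point per gene, by class. Mutant minus WT differences lie highest and are higher for mitotic than for replication genes. Rescued minus mutant differences lie mostly below 0, and rescued minus WT differences mostly above 0. Filled points passed an adjusted p under 0.05, and bars are medians. Each pair of comparisons shares 3 arrays.

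A few genes departed from the pattern of high mutant and intermediate rescued values. Kif23 was highest in rescued pools, 1.27-fold above mutant pools (0.35 ± 0.09, SE, adjusted p = 0.0407) and 1.43-fold above WT pools (0.51 ± 0.09, SE, adjusted p = 0.00685). Its call against mutant pools held in 11 of 20 settings, and was lost without any 1 rescued or mutant pool and without WT pool 2. E2f1, at 8.36, 8.44 and 8.40 in rescued pools, likewise lay above all mutant and all WT pools. Its rescued minus WT difference of 0.30 was called (adjusted p = 0.0340), a call that held in 10 of 20 settings. Its rescued minus mutant difference of 0.08 was not called (adjusted p = 0.570). Ccnd1 differed between rescued and WT pools by −0.24 ± 0.06 (SE, adjusted p = 0.0338), and this call held in 11 of 20 settings. Between rescued and mutant pools it differed by 0.06, which was not called (adjusted p = 0.619). Ccne1 read 8.43, 8.54 and 8.30 in rescued pools, all below the mutant pools. It was 1.39-fold lower in rescued than in mutant pools (−0.48 ± 0.10, SE, adjusted p = 0.0121), and its rescued minus WT difference of −0.21 was not called (adjusted p = 0.209).

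**Figure D5:**
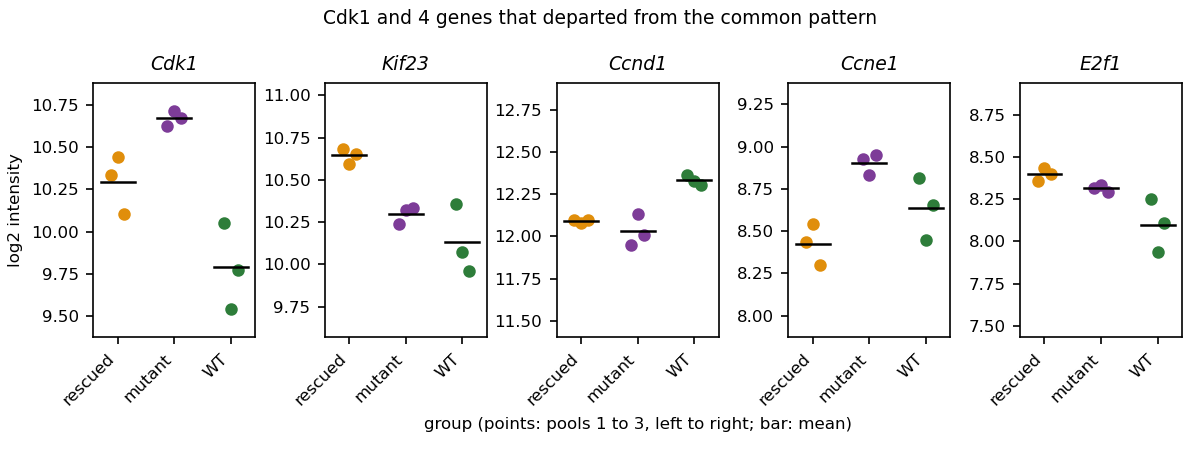
Log2 intensity in each pool of Cdk1, which shows the common pattern, and of 4 genes that depart from it, with rescued, mutant and WT pools from left to right. Points are pools and bars are group means. Kif23 and E2f1 are highest in rescued pools, Ccnd1 is lower in rescued and mutant than in WT pools, and Ccne1 is lowest in rescued pools.

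The spread between pools was uneven. The median within-group standard deviation of the 43 genes was 0.165 in rescued, 0.060 in mutant and 0.218 in WT pools, whereas over all genes it was 0.098, 0.092 and 0.095. The median deviation of the mitotic genes was 0.05, 0.17 and −0.20 in rescued pools, 0.38, 0.46 and 0.43 in mutant pools and −0.13, −0.57 and −0.57 in WT pools. That of the replication genes was 0.08, 0.01 and −0.07 in rescued pools, 0.24, 0.20 and 0.22 in mutant pools and −0.04, −0.42 and −0.26 in WT pools. Thus WT pool 1 lay nearer to the rescued pools than to the other WT pools in both classes. Rescued pool 3 was the lowest rescued pool for 26 of 27 mitotic genes, and it also had the lowest Srf value of all pools, 8.45. Whether Srf bore on these values was not tested.

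Markers of several cell types also differed between mutant and WT pools, some lists mostly higher and others mostly lower. In this comparison 15.1% of all genes were higher and 16.5% lower. Of 7 basal epithelial markers, 4 were higher and 1 lower in mutant than in WT pools, and their mean level was 11.7, 11.8 and 11.5 in rescued pools, between 11.97 and 12.01 in mutant pools and 11.4 in each WT pool. Of 5 markers of the differentiated corneal epithelium, 4 were lower in mutant than in WT pools. All 5 conjunctival markers (Krt4, Krt8, Krt13, Krt19 and Muc5ac) were higher in mutant pools. Their mean level was 10.5, 10.6 and 9.98 in rescued pools, 10.8, 11.03 and 10.9 in mutant pools and 8.86, 8.79 and 8.61 in WT pools. Muc5ac was dim, at 5.95 in rescued, 6.19 in mutant and 5.74 in WT pools on average, where the median of all rows was 6.77. Of 9 macrophage markers, 8 were higher and 1 lower in mutant pools, and the range of their mean level was 8.19 to 8.48 in rescued, 8.21 to 8.71 in mutant and 7.46 to 7.56 in WT pools. Of 8 blood endothelial markers, 7 were higher and 1 lower, and the ranges were 7.60 to 7.96 in rescued, 8.01 to 8.55 in mutant and 6.47 to 6.56 in WT pools.

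Of 5 lymphocyte markers 2 were higher in mutant pools, all 4 corneal endothelial markers were lower, and of 5 keratocyte markers 1 was lower. In rescued against mutant pools 6.46% of all genes were higher and 6.88% lower. There, of 7 basal markers 1 was higher and 3 lower, and of 5 corneal epithelial markers 4 were higher. Of 5 conjunctival markers 1 was lower, of 9 macrophage markers 1 was higher and 1 lower, and of 8 blood endothelial markers 5 were lower. The part of each cell type in the results was not tested. WT pool 1 was the highest WT pool in mean conjunctival level, and not in mean basal, macrophage or blood endothelial level, at 11.4, 7.46 and 6.53 in that pool against 11.4, 7.56 and 6.56 in WT pool 2.

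The rest of the pathway was read from lists of further genes. The shares of all genes stand beside their counts as follows. In mutant against WT pools 15.1% of all genes were higher and 16.5% lower, in rescued against mutant pools 6.46% and 6.88%, and in rescued against WT pools 6.28% and 7.43%. Of 34 other replication genes, 19 were higher and 2 lower in mutant than in WT pools. Dbf4, the activator of the kinase that fires origins, was 2.74-fold higher (adjusted p = 0.000215), Mcm10, a replication fork factor, 1.61-fold and Gmnn, the geminin inhibitor of relicensing, 1.55-fold. Orc3, an origin recognition subunit, was 1.43-fold lower and Rfc1, the large subunit of the clamp loader, 1.17-fold lower. In rescued against mutant pools 3 of the 34 were lower, a share near that of all genes, and none was higher. The 3 were Dbf4 (1.74-fold), Dut (1.32-fold), which keeps uracil out of DNA, and Orc4 (1.25-fold), an origin recognition subunit. In rescued against WT pools 6 were higher and 1 lower, the lower one being Orc3 (1.36-fold).

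Of 42 other mitotic genes, 37 were higher and 1 lower in mutant than in WT pools. Cep55, which organises abscission at the midbody, was 2.38-fold higher, Ttk, the checkpoint kinase Mps1, 2.06-fold and Kif4, a chromosome-bound motor, 2.02-fold. Bub3, which binds Bub1 at the kinetochore, was 1.19-fold lower. In rescued against mutant pools 11 were lower and none higher, led by Cep55 (1.62-fold), Cdc25b (1.43-fold), the phosphatase that activates Cdk1, and Kif2c (1.42-fold), a kinetochore depolymerase. In rescued against WT pools 7 were higher and none lower, led by Kif4 (1.48-fold), Ttk (1.47-fold) and Racgap1 (1.45-fold), the partner of Kif23 in centralspindlin.

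Of 29 other regulators, 17 were higher and 6 lower in mutant than in WT pools, and the share of lower genes was near that of all genes. E2f8, an E2F repressor of late S phase, was 2.53-fold higher, Myc, a driver of growth and cell cycle entry, 1.80-fold and E2f5, an E2F partner of pocket proteins, 1.75-fold. Rbl2, the pocket protein p130 of resting cells, was 1.44-fold lower, Ccnd2, cyclin D2, 1.40-fold lower and Lin52, a MuvB subunit, 1.37-fold lower. In rescued against mutant pools Ccnd2 was 1.53-fold higher (adjusted p = 0.0104), and E2f5 (1.43-fold), Myc (1.33-fold) and Wee1 (1.28-fold), the kinase that restrains Cdk1, were lower. In rescued against WT pools 5 were higher, led by E2f8 (1.76-fold), Myc (1.35-fold) and Cdk2 (1.24-fold), the kinase partner of cyclin E. There 4 were lower, led by Tfdp2 (1.32-fold), an E2F dimer partner, Rbl2 (1.26-fold) and E2f7 (1.24-fold), an E2F repressor.

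The other D-type cyclins are set beside Ccnd1 here. Ccnd2, like Ccnd1, was lower in mutant than in WT pools (−0.49, adjusted p = 0.0140), and its rescued minus WT difference of 0.13 was not called (adjusted p = 0.572), where that of Ccnd1 was. Ccnd3, cyclin D3, averaged 8.997 in rescued, 9.03 in mutant and 8.90 in WT pools and was called in none of the 3 comparisons.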

How the data were processed

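Total RNA of 9 pools was hybridised to single-colour arrays, and the value deposited by the authors for each row is a log2 intensity. That the base is 2 follows from how far the values reach (2.14 to 14.3). The sources used here give no normalisation method, software or genome build. Rows with exactly 1 symbol in the platform annotation were kept (23521 of 41345), with the brightest row for each gene (22180 genes), and dim genes were not removed.

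All 9 arrays were fitted together in limma (version 3.58.1, R 4.3.3) with 3 group means, eBayes and Benjamini-Hochberg adjustment over all genes of each comparison. A gene was called at an adjusted p under 0.05, and all tests were two-sided. The p-values rest on the spread between pools, taken as 1 variance per gene shared by all 3 groups. For the 43 genes that spread was uneven between groups, as described above. The genes, lists and tests were chosen with earlier results of these data known. All 43 genes are named, with up to 3 called genes per direction from each further list, the cyclin partners, Dstn and Srf. In simulated data, noise was independent, each gene had the same spread in every group, and 50 genes were changed at each size. There the fit recovered 56% of genes changed by 0.5 on the log2 scale and 96% of those changed by 1. In the real data far more genes were called and the spread of the 43 genes was uneven. The simulated rates therefore do not give the power for the 43 genes. Same-numbered pools did not deviate together (correlations −0.016 to 0.063), so the numbers were not used as pairs. Alternatives covered normalisation, intensity filters, variance trend, array weights, the threshold and each pool left out. Genes of the further lists without a row of their symbol alone, such as Ccnb1 and Ccne2, are not reported. Promoter windows came from RefSeq tables.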

Additional observations from a re-analysis of the deposited data

How the results depend on the processing

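The mutant against WT results were the steadiest. The count of genes higher in mutant pools lay between 34 and 42 with 1 pool left out and between 34 and 40 over 11 other settings, and Ccnd1 was lower in each. Over all 22180 genes, 2831 were higher without mutant pool 1, where 34 of the 43 were, and 3105 without WT pool 1, where 42 were. The median difference lay between 0.61 and 0.81 and the class difference between −0.47 and −0.37 with 1 pool left out. Of the 38 calls, 35 held in all 20 settings, the exceptions being Mcm2, Tk1 and Nusap1.

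In rescued against mutant pools the count of lower genes, 9, lay between 2 and 17 with 1 pool left out. It was 14 with a filter at the 25th percentile of intensity, 20 with a filter at the median and 18 with a variance trend. With the 6 arrays of the comparison alone it was 13, and at an adjusted p under 0.01 it was 1. Over all genes, 1839 of 16635 were lower with the 25th percentile filter, 1967 of 11090 with the median filter and 1972 of 22180 with the trend. With the 6 arrays 1232 of 22180 were lower. At the stricter threshold 653 were, a share near that of the 43. The count of higher genes among the 43 was 0 or 1 with a pool left out and 0 at the stricter threshold. The median lay between −0.45 and −0.25 and the class difference between 0.11 and 0.31. In rescued against WT pools the count of higher genes, 12, lay between 1 and 27 with 1 pool left out. It was 21 after quantile normalisation, 19 with the 25th percentile filter, 22 with the median filter, 21 with a trend, 3 with the 6 arrays of the comparison alone and 1 at the stricter threshold. Over all genes, 1587 of 22180 were higher after quantile normalisation, 1620 of 16635 and 1519 of 11090 with the filters and 1704 of 22180 with the trend. With the 6 arrays 1218 of 22180 were higher. At the stricter threshold 649 were, a share near that of the 43. Ccnd1, the 1 lower gene, was lost at the stricter threshold (0 genes). It was also lost without any 1 rescued or WT pool and without mutant pool 3. The median lay between 0.28 and 0.50 and the class difference between −0.26 and −0.10. The cause of these changes was not tested. By design the filters left fewer genes to adjust over and the 6-array fits had fewer samples, and the part of either was not tested. No called value changed sign. Values that were called in neither setting changed sign 4 times, among them the rescued minus mutant difference of Tk1 (−0.051 to 0.012) and the rescued minus WT difference of Cenpf (−0.059 to 0.163).

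With the replicate number as a block, 38 genes were higher and 1 lower in mutant than in WT pools, 8 lower and 0 higher in rescued than in mutant pools, and 10 higher and 0 lower in rescued than in WT pools. Over all 22180 genes these counts were 3236 higher and 3451 lower, 1308 lower and 1199 higher, and 1227 higher and 1429 lower. The numbers did not pair the samples, and the cause of the loss of Kif23 and of Ccnd1 with the block was not tested. The rescued minus mutant call of Kif23 and the rescued minus WT call of Ccnd1 were lost in other settings too, and each held in 11 of 20. All 43 genes lay above the median of all rows, but neither background nor saturation of single probes could be measured from these values.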

Other observations

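The unevenness between pools extended to cell cycle genes outside the 43. WT pool 1 was the highest WT pool for 38 of 42 other mitotic genes (90.5%), for 30 of 34 other replication genes (88.2%) and for 22 of 29 other regulators (75.9%), against 38.6% of all genes. Rescued pool 3 was the lowest rescued pool for 39 of 42 other mitotic genes (92.9%), 20 of 34 other replication genes (58.8%) and 19 of 29 other regulators (65.5%), against 32.0% of all genes.

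Within the mutant group the highest pool differed between the classes. Mutant pool 2 was the highest mutant pool for 19 of 27 mitotic genes and mutant pool 1 for 9 of 13 replication genes, against 31.9% and 33.5% of all genes. Mutant pool 1 was also the highest for 6 of 8 blood endothelial markers and 8 of 9 macrophage markers. Mutant pool 2 was the lowest for 8 of 8 blood endothelial markers, 7 of 9 macrophage markers, 6 of 13 replication genes and 2 of 27 mitotic genes, against 37.5% of all genes. The mean level of the blood endothelial markers was 8.55, 8.01 and 8.45 in mutant pools 1, 2 and 3, and that of the macrophage markers 8.71, 8.21 and 8.396. These ranks are descriptions of 3 pools and were not tested.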
